A study of Homo sapiens with 2 samples.

Results

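Collagen genes named COL, a number, A and a number make up 42 of the 19111 protein-coding genes of chromosomes 1-22 in GENCODE 44, and they were described here in 1 map of nucleosomes. The symbol rule uses no measured value, though the family was proposed with earlier results of these data known, and the genes lie on 16 chromosomes. Within them, COL1A1, COL1A2, COL3A1, COL5A1 and COL5A2 were set apart as the fibrillar set, and the remaining 37 genes are called the other collagen genes. The map comes from ARPE-19 cells, a widely used line derived from human retinal pigment epithelium, taken in interphase from DMEM/F-12 with fetal bovine serum and antibiotics; normal culture is the only treatment the labels name. Lysed cells were digested with micrococcal nuclease, an enzyme that cleaves linker DNA, for 5 min at 37 °C, and fragments of about 150 bp were sequenced. The labels list 2 samples, batch 1 and batch 2, of this 1 condition, and there is no control arm. The authors' list gives 1 set of positions, each 1 bp wide and without a height, and it does not tell the batches apart. No value per sample, no spread between samples and no test over samples could therefore be had, and RNA was not measured, so the cell type could not be checked against marker genes.

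Collagens are built from chains that repeat a triplet of residues that opens with glycine, which lets 3 chains wind into a triple helix. In the fibril-forming collagens the helix is encoded by many small exons, each holding whole glycine triplets, and the unit exon is 54 bp long, so that common lengths are 45, 54, 99 and 108 bp. The retinal pigment epithelium rests on Bruch's membrane, a sheet that contains network-forming collagens in its basement membranes and fibrillar collagens in between. A nucleosome wraps more DNA than a 54-bp exon holds, so a nucleosome over such an exon also covers intron.

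The list held 2558490 distinct positions on chromosomes 1-22, or 0.928 per kb. For every gene, exon or window, the number of positions was set against a GC expectation: each base was given the autosomal density of sequence with the same GC content in the 200 bp around it, in bins of 2%. A ratio of 1 means as many positions as other sequence of that GC content has. Intervals are exact 95% Poisson intervals of the count divided by the expectation, and for shares 95% Wilson intervals. Both cover counting error only, since positions are not independent of each other, and read depth is unknown. Shares of genes or exons, unlike the ratios, were not adjusted for GC content.

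The collagen genes had a median of 48 exons, against 8 over all genes, with a range of 3 to 119. Their selected transcripts contained 1822 internal coding exons with a median length of 55 bp, and 51.1% of these were under 60 bp. In the other protein-coding genes the median of 152334 such exons was 123 bp, and 7.57% were under 60 bp. The triplet structure was plain in the annotation: 1179 collagen exons, 64.7%, had a length divisible by 9, and 1199, 65.8%, opened with a whole glycine codon (GGN), against 13.5% and 3.48% in the other genes. In the fibrillar set 226 of 264 exons were divisible by 9 and 231 opened with GGN. Collagen exons were rich in GC, with a median of 61.5% against 49.5% in other genes, and the 100 bp of sequence on either side of an exon had a median of 49.5% in collagen genes and 43% in other genes.

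To show the sequence around a position at such an exon, the 147 bp centred on a position are printed for each fibrillar gene. The exon is the one of 60 to 120 bp whose midpoint lay closest to a position. Whether a position marks the centre of a nucleosome is not stated in the sources, so the 147 bp are a window and not a measured footprint. Capitals mark the exon, lower case is intron, the sequence is hg38 and it is read 5′ to 3′ along the gene. Because these exons were picked for being close to a position, their centring is a description.
COL1A1 exon 32, chr17:50191369-50191515, minus strand: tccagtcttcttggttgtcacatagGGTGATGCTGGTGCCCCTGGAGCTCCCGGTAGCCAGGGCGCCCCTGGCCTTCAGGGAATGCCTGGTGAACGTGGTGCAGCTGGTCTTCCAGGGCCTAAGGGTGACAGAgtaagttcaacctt
COL1A2 exon 21, chr7:94410402-94410548, plus strand: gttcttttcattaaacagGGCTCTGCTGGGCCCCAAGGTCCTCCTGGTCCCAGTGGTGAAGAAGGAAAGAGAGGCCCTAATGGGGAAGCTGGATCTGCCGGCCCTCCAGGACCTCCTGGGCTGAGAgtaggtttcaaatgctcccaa
COL3A1 exon 31, chr2:188999451-188999597, plus strand: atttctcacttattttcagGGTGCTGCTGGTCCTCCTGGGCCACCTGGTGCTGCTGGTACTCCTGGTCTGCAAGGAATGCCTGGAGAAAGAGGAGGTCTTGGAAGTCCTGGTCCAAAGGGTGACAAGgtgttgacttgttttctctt
COL5A1 exon 46, chr9:134811466-134811612, plus strand: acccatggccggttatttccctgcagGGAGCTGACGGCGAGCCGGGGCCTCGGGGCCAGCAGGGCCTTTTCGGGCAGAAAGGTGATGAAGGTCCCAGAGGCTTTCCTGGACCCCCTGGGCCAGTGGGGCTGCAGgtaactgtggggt
COL5A2 exon 25, chr2:189064530-189064676, minus strand: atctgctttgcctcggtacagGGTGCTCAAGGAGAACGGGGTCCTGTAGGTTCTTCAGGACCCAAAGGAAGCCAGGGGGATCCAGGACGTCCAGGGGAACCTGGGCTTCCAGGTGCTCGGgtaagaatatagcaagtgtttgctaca
All 5 exons lie whole within the 147 bp. In COL1A2, 12 of 36 codons in the printed exon are GGN, the exon is 63.9% GC and the intron printed around it 35.9%. In COL3A1 the figures are 59.3% and 30.8%. In COL5A1 the exon is 69.4% GC and the intron around it 56.4%.

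A 54-bp exon leaves most of such a window to intron, as the closest exon under 60 bp shows in COL1A2.
COL1A2 exon 28, chr7:94413844-94413990, plus strand: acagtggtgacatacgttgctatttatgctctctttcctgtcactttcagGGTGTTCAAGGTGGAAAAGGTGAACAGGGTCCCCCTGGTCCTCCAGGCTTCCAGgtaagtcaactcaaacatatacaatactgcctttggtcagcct
The position lay 3 bp upstream of the exon's midpoint.

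Collagen exons of 60 to 120 bp carried more positions than their GC content gives, and in 3 of 5 fibrillar genes the interval lay wholly above 1. The 539 collagen exons of this class held 140 positions against 68.7 expected, a ratio of 2.04 (interval 1.71 to 2.41). The same class in other genes had a ratio of 1.11 (1.09 to 1.14, 61988 exons). At least 1 position lay in 130 of the 539 collagen exons, or 24.1% (20.7 to 27.9%), where 11.1% of such exons over all genes had one. Exons under 60 bp held 74 positions in 931 exons, a ratio of 1.33 (1.04 to 1.66), against 0.825 (0.747 to 0.908) in other genes, and 72 of them, 7.73%, held at least 1, where the background over all genes was 3.83%. Exons over 120 bp held 134 positions in 352 exons, a ratio of 1.23 (1.03 to 1.46), against 0.926 in other genes. In that class 105 exons, 29.8%, held a position, and 20.9% did over all genes. The size of these ratios depended on how closely GC content was matched. With the expectation taken from the 100 bp around a base, a setting added after the data were seen, the collagen ratios were 0.897 (0.705 to 1.13) under 60 bp, 1.47 (1.24 to 1.74) at 60 to 120 bp and 0.959 (0.803 to 1.14) over 120 bp, so the shortest and longest classes turned below 1. The other genes then stood at 0.679, 0.870 and 0.735.

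In the fibrillar set, COL3A1 and COL1A2 led. COL3A1, which encodes the single chain of type III collagen, had 12 positions in its 15 exons of 60 to 120 bp against 2.51 expected, a ratio of 4.78 (2.47 to 8.36), and 11 of the 15 exons held at least 1. COL1A2, the second chain of type I collagen, had 10 positions in 14 exons against 2.64, a ratio of 3.78 (1.81 to 6.95), in 10 exons. COL5A2, a chain of type V collagen, had 8 in 15 exons against 2.51, a ratio of 3.18 (1.37 to 6.27), in 7 exons. These 3 genes stood above the expectation by more than the counting error, and the remaining pair did not. COL1A1, the main chain of type I collagen, had 2 positions in 16 exons, both in the same exon, a ratio of 0.798 (0.0966 to 2.88). COL5A1, the partner chain in type V collagen, had 3 in 15 exons, a ratio of 1.25 (0.258 to 3.66). Summed over the set, 35 positions lay in 75 exons against 12.6 expected, a ratio of 2.78 (1.94 to 3.87). The other collagen genes had 105 in 464 exons, a ratio of 1.87 (1.53 to 2.27). The ratio of the fibrillar set to the other collagen genes was 1.49 (exact conditional binomial interval 0.985 to 2.20), an interval that reached 1, and it lay between 1.22 without COL3A1 and 1.75 without COL1A1.

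**Figure D1:**
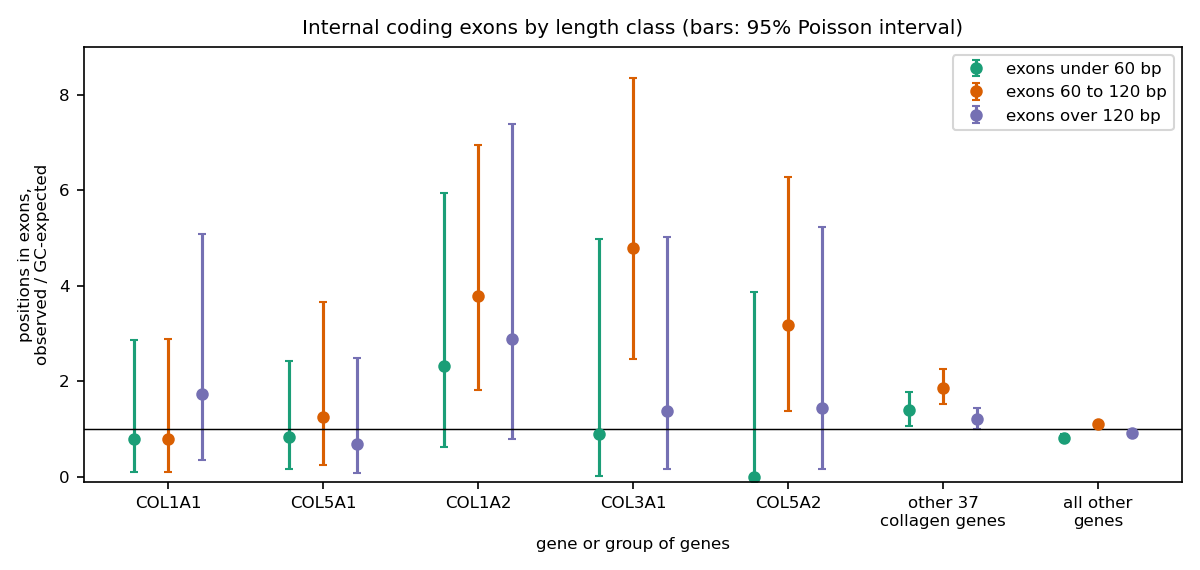
Observed over GC-expected positions (vertical axis) in internal coding exons under 60, of 60 to 120 and over 120 bp, for each of 5 fibrillar collagen genes, the other 37 collagen genes and all other genes; points are ratios and bars 95% Poisson intervals. The points for 60 to 120 bp stand at 3.78, 4.78 and 3.18 in COL1A2, COL3A1 and COL5A2 and at 0.798 and 1.25 in COL1A1 and COL5A1.

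Inside exons under 60 bp the fibrillar set showed no such excess, though few positions were expected there. COL1A1 had 2 positions in 28 such exons, COL1A2 had 4 in 32, COL3A1 had 1 in 29, COL5A1 had 3 in 40 and COL5A2 had 0 in 32, where 0.952 were expected. Together they held 10 positions in 161 exons against 9.93 expected, a ratio of 1.01 (0.483 to 1.85), an interval that is wide on both sides of 1. No exon of the fibrillar set under 60 bp held more than 1 position. Among the other collagen genes 770 exons held 64 positions, a ratio of 1.39 (1.07 to 1.78), and the rate ratio of the sets was 0.722 (0.331 to 1.42). Only exon 23 of COL6A3 (chromosome 2, 237357338 to 237357391, minus strand), which encodes the largest common chain of type VI collagen, and exon 14 of COL9A1 (chromosome 6, 70271655 to 70271708, minus strand), which encodes a chain of the fibril-associated type IX collagen, held 2 positions, each within 54 bp. A point inside a short exon is a narrow target, so the distance from each exon's midpoint to the nearest position was also taken. It was 73 bp or less for 242 of 931 collagen exons under 60 bp, 26.0% (23.3 to 28.9%), where 12.4% of such exons over all genes met this. For 60 to 120 bp it was 169 of 539, or 31.4% (27.6 to 35.4%), against a background of 15.5%. For exons over 120 bp it was 79 of 352, or 22.4% (18.4 to 27.1%), against 17.7%.

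Exons of exactly 108 bp, or 2 units of 54 bp, made up 42 of the 75 fibrillar exons of 60 to 120 bp. They held 24 of the 35 positions of that class. Their ratio was 3.21 (2.06 to 4.78), beside 2.78 (1.94 to 3.87) in the whole class and 2.94 (1.41 to 5.40) at 99 bp. The length of 108 bp was singled out after its values were seen, so it is a description. All 8 exons of 108 bp in COL3A1 held 1 position each, against 1.42 expected in all. Their positions lay at 6, 1, -11, -7, 39, 11, 8 and -22 bp from the midpoints of exons 20, 31, 36, 40, 41, 43, 45 and 47, with negative values upstream. COL1A2 had a position in 5 of 8 such exons and COL5A2 in 5 of 8, one of which, exon 43, held 2. In COL1A1 it was 1 of 9, exon 32 with 2 positions, and in COL5A1 it was 3 of 9. Over all genes, 14.1% of 108-bp exons held a position. Exons of 99 bp ran the same way, with a position in 4 of 5 in COL1A2, 3 of 5 in COL3A1, 2 of 5 in COL5A2 and 0 of 5 in COL1A1, and a background of 14.3%. The unit length of 54 bp did not: 10 of 122 such exons in the fibrillar set held a position, 8.2%, and 8.5% did over all genes. None of the 26 fibrillar exons of 45 bp held one, where the background was 3.75%. In the other collagen genes, 20 of 54 exons of 108 bp held a position, with 23 positions against 9.54 expected, a ratio of 2.41 (1.53 to 3.62). Their exons of 99 bp held a position in 3 of 15, a ratio of 1.24 (0.255 to 3.61), and exons of 54 bp in 38 of 347, a ratio of 1.62 (1.16 to 2.20). Genes other than collagens had 0.985 (0.843 to 1.14) at 108 bp, 1.29 (1.12 to 1.48) at 99 bp and 1.53 (1.15 to 1.99) at 54 bp. The ratio at 54 bp was therefore much the same outside the collagens, where 50 of 684 such exons, 7.31%, held a position.

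The positions sat at the middle of these exons. Of the 33 fibrillar exons of 60 to 120 bp with a position within 73 bp of the midpoint, 24 had it within 20 bp, and the median distance was 11 bp. In the other collagen genes 58 of 136 lay within 20 bp, with a median of 25 bp, and in other genes 37.9% did, with a median of 29 bp. Fibrillar density reached 8.33 positions per kb (25 positions, 4.89 expected) within 20 bp of the midpoint. In the next 40 bp on either side it was 2 per kb. From 100 to 140 bp upstream no position was found where 3.51 were expected. The other collagen genes reached 3.13 per kb in the central bin (58 positions, 26.7 expected) and all other genes 1.44 per kb. Exons under 60 bp differed: the median distance was 36.5 bp in the 34 fibrillar exons that had a position within 73 bp. From 20 to 60 bp downstream, fibrillar exons of this class had 18 positions against 7.79 expected, and in the 40 bp that mirror them upstream 9 against 7.62. The other collagen genes had 101 against 40.9 downstream and 44 against 40.3 upstream, or 3.28 and 1.43 per kb. In other genes the same bins stood at 479 against 461.9 and 304 against 449.6. The downstream bin was not the only high one in the other collagen genes, which also had 76 positions against 37.3 from 100 to 140 bp upstream, where the fibrillar set had 4 against 6.17. These bins were singled out after their values were seen.

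**Figure D2:**
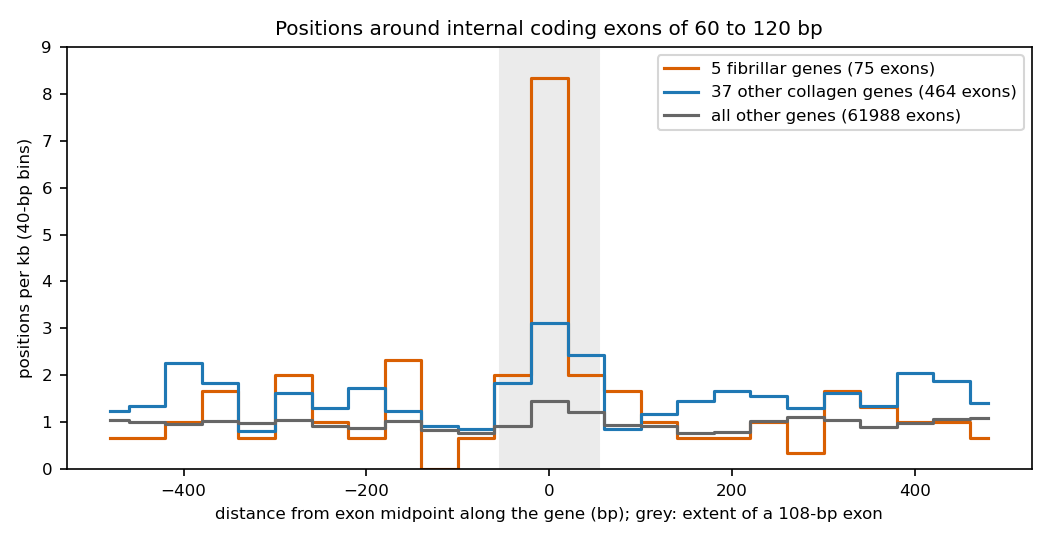
Positions per kb (vertical axis, bins of 40 bp) by distance from the midpoint of internal coding exons of 60 to 120 bp, in bp along the gene, for 5 fibrillar genes, the other 37 collagen genes and all other genes; the grey band is the extent of a 108-bp exon. The central bin reaches 8.33, 3.13 and 1.44 per kb.

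Within the fibrillar set, the genes that differed in these exons also differed in the GC content around them. In COL1A2, COL3A1 and COL5A2 the 100 bp of sequence on either side of exons of 60 to 120 bp had a median GC content of 38.3, 32 and 31.5%. In COL1A1 and COL5A1 it was 59 and 58.5%. The exons themselves were GC-rich in all 5 genes, with medians from 58.8 to 68.5%. The first 3 genes together held 30 positions in 44 exons against 7.67 expected, a ratio of 3.91 (2.64 to 5.59), and the other two held 5 in 31 against 4.90, a ratio of 1.02 (0.331 to 2.38). This grouping was made after the values were seen. With the 100-bp GC window the ratios were 2.92 (1.97 to 4.16) and 0.723 (0.235 to 1.69). Across the fibrillar set, exons flanked by less than 40% GC had 26 positions in 37 exons, a ratio of 4.09 (2.67 to 5.996), and those flanked by 50% or more had 4 in 30, a ratio of 0.852 (0.232 to 2.18). The same order was seen outside the collagens: exons of other genes had ratios of 2.20, 1.12 and 0.701 with flanks under 40, from 40 to 50 and of 50% GC or more. The other collagen genes had 2.61 (1.85 to 3.58), 1.60 (0.930 to 2.56) and 1.62 (1.20 to 2.13). With the 100-bp GC window these became 1.88 (1.33 to 2.58), 1.27 (0.739 to 2.03) and 1.12 (0.835 to 1.48), so the last interval then included 1. The fibrillar set stood at 3.06 (2.00 to 4.48) with flanks under 40% GC and 0.599 (0.163 to 1.53) with flanks of 50% or more under that window, and other genes at 1.82, 1.11 and 0.496. With flanks under 40% GC, 24 of 37 fibrillar exons, 64.9%, held a position, beside 22.3% in the other collagen genes and 10.1% in other genes, whose exons in this stratum had a median GC content of 60.2, 54.5 and 41.2%. The 6 fibril-forming genes outside the fibrillar set did not split this way. COL11A1 and COL24A1, with median flanks of 28.5 and 33% GC, had ratios of 2.085 (0.568 to 5.34) and 2.25 (0.272 to 8.11). COL2A1, with flanks of 57.5%, had 4.58 (2.365 to 7.997), and COL5A3, with 56.5%, had 2.54 (1.02 to 5.24). COL11A2, with 58.75%, had 1.59 (0.434 to 4.08), and COL27A1, with 59.5%, had 1.42 (0.172 to 5.14). The part of flanking GC content in the difference between the genes was not tested.

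**Figure D3:**
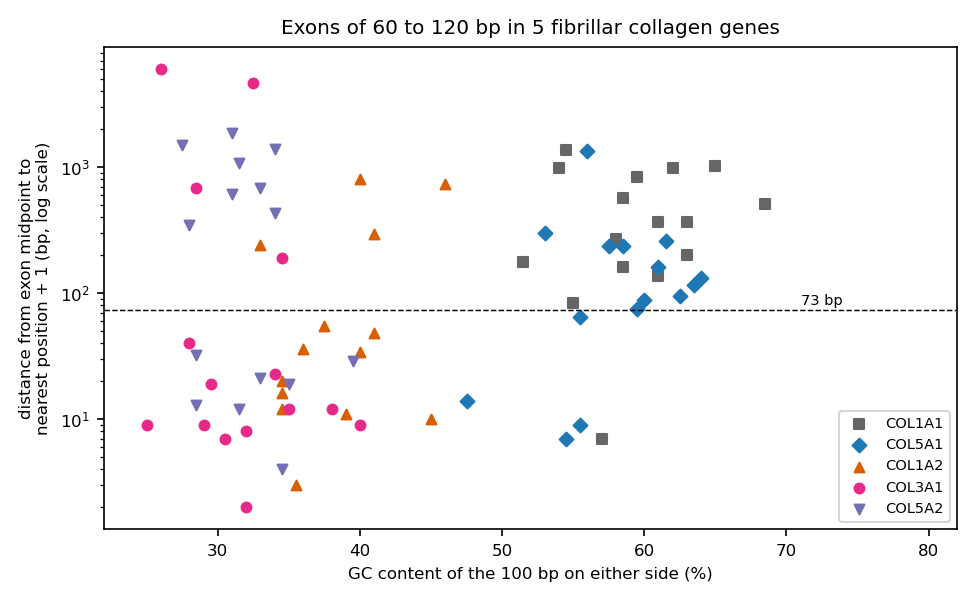
Distance from the exon midpoint to the nearest position plus 1 (vertical axis, bp, log scale) against the GC content of the 100 bp on either side (horizontal axis, %) for the 75 exons of 60 to 120 bp in 5 fibrillar genes, 1 point per exon; the dashed line is 73 bp. Of 44 exons in COL1A2, COL3A1 and COL5A2, 28 lie below the line, and of 31 in COL1A1 and COL5A1, 5 do.

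Summed over all lengths, introns of collagen genes were only slightly denser than their GC expectation. They held 6351 positions against 5630, a ratio of 1.13 (1.10 to 1.16), beside 0.933 in other genes. Introns under 200 bp stood higher, at 1.30 (1.05 to 1.59), beside 0.656 in other genes. Those of the other collagen genes stood at 1.39 (1.11 to 1.73) and those of the fibrillar set at 0.822 (0.394 to 1.51). Over introns of all lengths, the fibrillar set had 480 against 437, a ratio of 1.10 (1.00 to 1.20). COL5A1 supplied 375 of the 480, at a ratio of 1.16 (1.05 to 1.29). COL1A1, whose introns have a median of 141.5 bp, held 11 positions in 50 introns against 19.1 expected, a ratio of 0.577 (0.288 to 1.03). COL3A1 had 9 intron positions, a ratio of 0.806 (0.369 to 1.53), COL1A2 had 22, a ratio of 1.16 (0.729 to 1.76), and COL5A2 had 63, a ratio of 0.969 (0.745 to 1.24). In COL3A1, then, exons of 60 to 120 bp held more positions than the introns did. The introns of the fibrillar set and of the other collagen genes differed by less than counting error, with a rate ratio of 0.972 (0.884 to 1.07). COL1A1 was also the most compact of the 5: neighbouring internal coding exons lay a median of 222.5 bp apart, midpoint to midpoint, in COL1A1, 497.5 bp in COL3A1, 515 bp in COL1A2, 1105 bp in COL5A2 and 1143 bp in COL5A1.

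**Figure D4:**
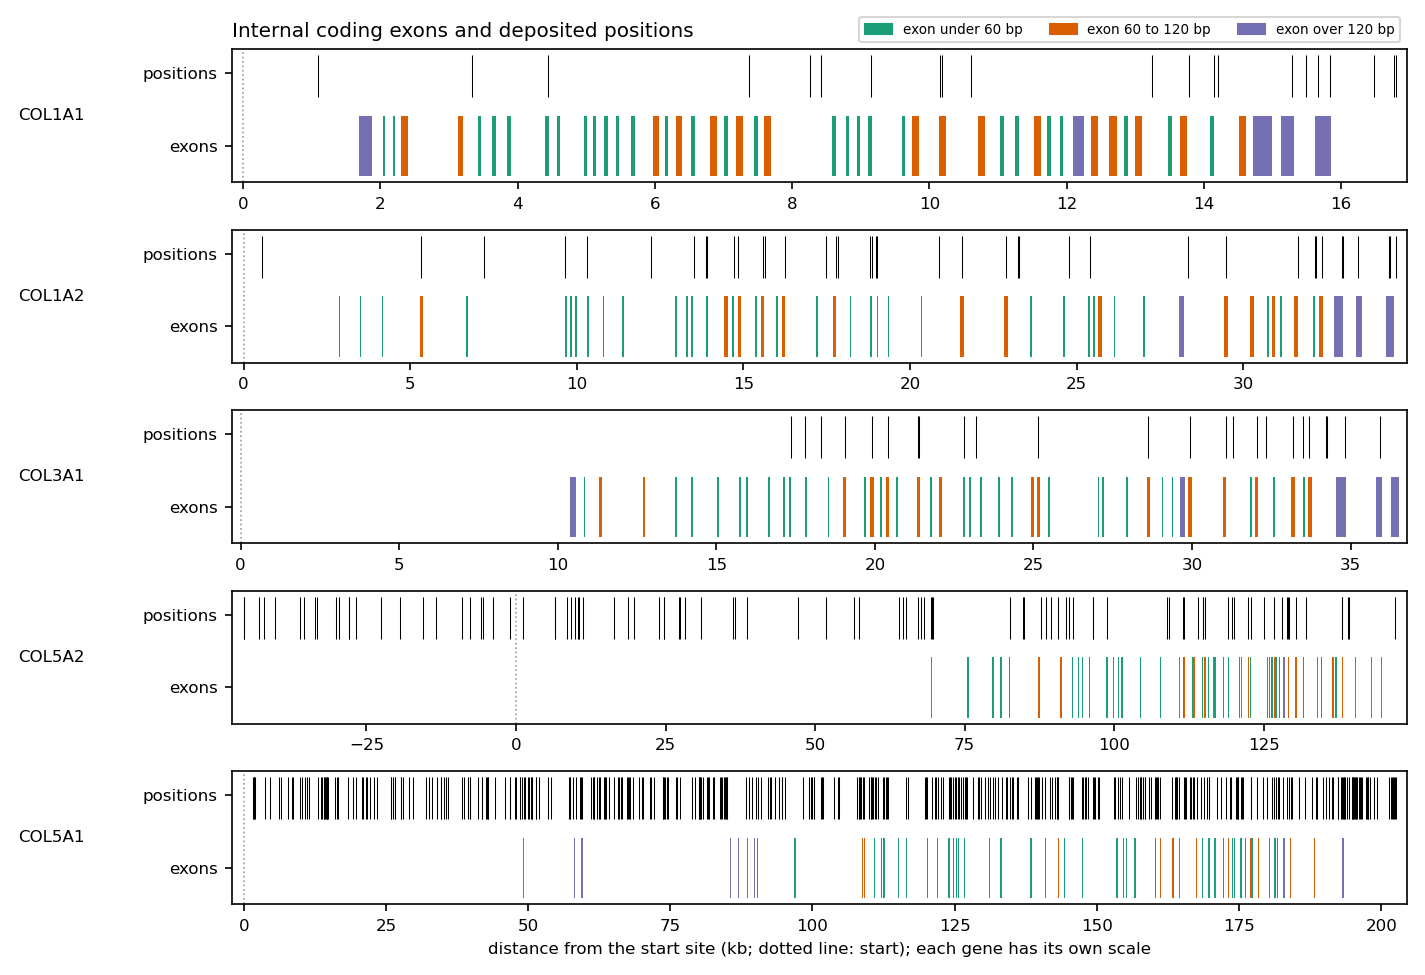
Internal coding exons (coloured by length class, drawn with a minimum width so that they can be seen) and deposited positions (black lines) along 5 fibrillar collagen genes, by distance from the start site in kb, each on its own scale; COL5A2 extends upstream of the start used. COL3A1 has 24 positions, the first of them 17.4 kb after the start site, and COL5A1 has 390 over 203 kb.

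Over whole gene bodies, collagen genes ranged from 0.393 to 1.82 times their GC expectation, with a median of 1.15 (quartiles 0.862 and 1.34). The median over the 15114 autosomal protein-coding genes with at least 10 expected positions was 0.826 (quartiles 0.563 and 1.12). A ratio above 1 was found in 29 of 42 collagen genes, or 69.0%, and in 34.2% of all genes. A ratio of at least 1.5 was found in 6 collagen genes, against a background of 6.91%, and a ratio of 1/1.5 or less in 6, against 34.5%. Summed, the bodies held 7056 positions against 6192 expected, a ratio of 1.14 (1.11 to 1.17). That of the fibrillar set was 1.14 (1.05 to 1.24), and the rate ratio to the other collagen genes 1.00 (0.918 to 1.09). Divided by the level of the 500 kb on either side of each gene, that rate ratio was 0.771. COL5A1 held 390 of the set's 573 positions, and its surroundings on chromosome 9 stood at 1.44 times their GC expectation.

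The body ratios of the fibrillar genes ranged from 0.735 to 1.58, and most of their intervals overlapped. COL1A1 (ENSG00000108821.14; chromosome 17, 50184101 to 50201632, minus strand) had 21 positions against 28.6 expected, a ratio of 0.735 (0.455 to 1.12). COL1A2 (ENSG00000164692.19; chromosome 7, 94394895 to 94431227, plus strand) had 40 against 25.3, a ratio of 1.58 (1.13 to 2.15), at the 94.8th percentile of all genes. The ratios of the 2 chains of type I collagen thus lay on opposite sides of 1, with intervals that only just did not overlap. The interval of COL1A1 included 1. COL3A1 (ENSG00000168542.17; chromosome 2, 188974373 to 189012746, plus strand) had 24 against 16.8, a ratio of 1.43 (0.913 to 2.12). COL5A2 (ENSG00000204262.14; chromosome 2, 189031898 to 189225312, minus strand) had 98 against 96.2, a ratio of 1.02 (0.827 to 1.24). It lies tail to tail with COL3A1, with 19151 bp between them. COL5A1 (ENSG00000130635.17; chromosome 9, 134641803 to 134844843, plus strand) had 390 against 335, a ratio of 1.16 (1.05 to 1.29), which was 0.809 of the level of its surroundings.

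Type IV collagen, the network collagen of basement membranes, was split between its gene pairs. COL4A1 and COL4A2, which encode the chains found in most basement membranes, were the sparsest pair. COL4A1 had 80 positions against 196.8 expected, a ratio of 0.407 (0.322 to 0.506), and COL4A2 had 113 against 287, a ratio of 0.393 (0.324 to 0.473), at the 12.6th and 11.8th percentiles of all genes. Their surroundings did not share this level, at 0.852 and 0.879. COL4A3 and COL4A4, the chains of specialised membranes such as that of the kidney glomerulus, had 155 positions, a ratio of 1.15 (0.972 to 1.34), and 147 positions, a ratio of 0.929 (0.785 to 1.09). The next lowest were COL11A1, a fibril-forming chain of cartilage, at 0.410 (0.290 to 0.563), and COL8A1, a short-chain network collagen, at 0.503 (0.385 to 0.646). The densest collagen genes outside the fibrillar set were COL27A1, a fibrillar-type chain, at 1.82 (1.66 to 1.99), COL2A1, the fibrillar collagen of cartilage, at 1.80 (1.46 to 2.20), COL6A3 at 1.72 (1.48 to 1.98) and COL15A1, a basement membrane zone collagen, at 1.56 (1.38 to 1.75). COL27A1 and COL15A1 lie on chromosome 9 in regions at 1.62 and 1.83 times the GC expectation, and stood at 1.12 and 0.854 of those levels. COL2A1 and COL6A3 stayed at 1.73 and 1.38.

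**Figure D5:**
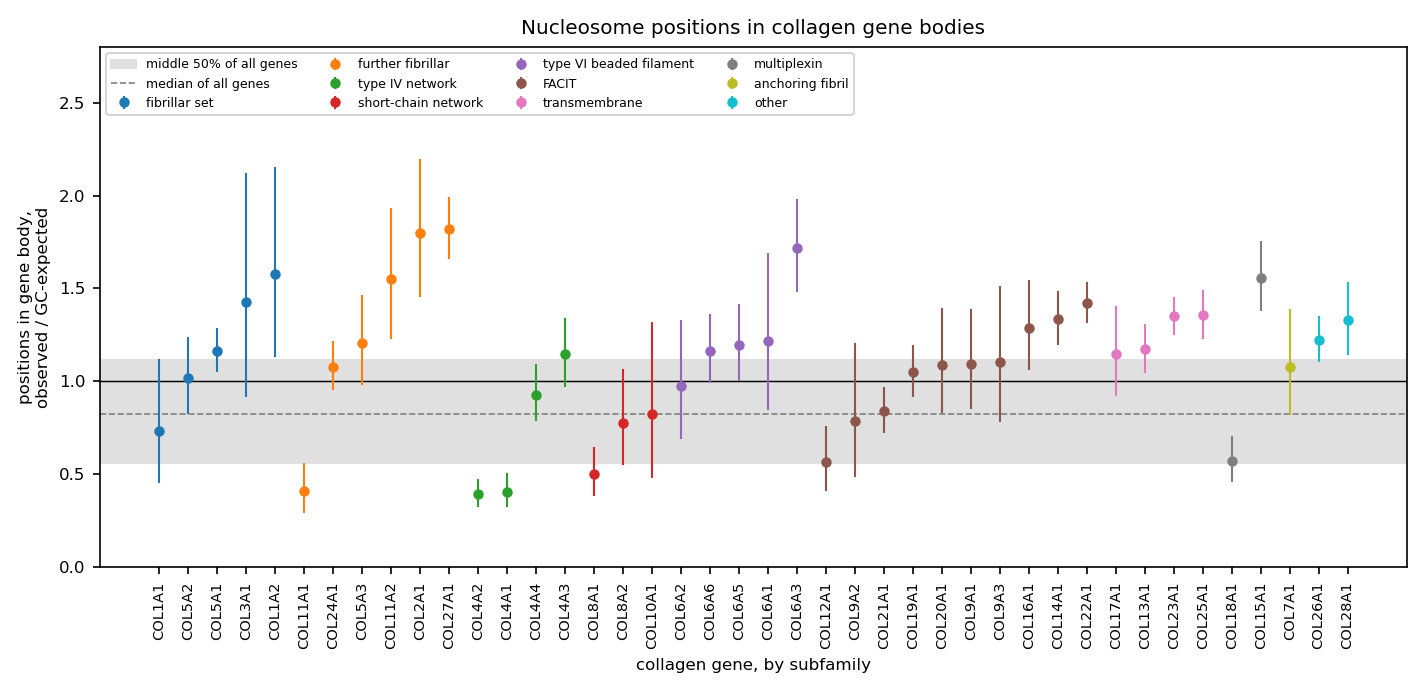
Observed over GC-expected positions in the bodies of 42 collagen genes (vertical axis), grouped by subfamily; points are ratios, bars 95% Poisson intervals, the grey band the middle 50% of all genes with at least 10 expected positions and the dashed line their median, 0.826. COL4A1 and COL4A2 stand at 0.407 and 0.393 and COL27A1 at 1.82.

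By subfamily, the other fibril-forming genes summed to a body ratio of 1.33 (1.25 to 1.42, 6 genes) and type VI collagen, which forms beaded filaments, to 1.30 (1.20 to 1.42, 5 genes). The transmembrane collagens, which are held in the cell surface, summed to 1.30 (1.23 to 1.36), with all 4 genes above 1. The 10 genes of fibril-associated collagens summed to 1.17 (1.12 to 1.23) and ranged from 0.563 to 1.42. Short-chain network collagens summed to 0.608 (0.502 to 0.729, 3 genes), with COL8A1 the lowest. COL8A2, at 0.776 (0.549 to 1.06), and COL10A1, at 0.825 (0.481 to 1.32), had intervals that included 1. The multiplexins COL15A1 and COL18A1, whose C-terminal ends are released as anti-angiogenic fragments, lay apart at 1.56 and 0.572 (0.459 to 0.705). In exons of 60 to 120 bp, the ratio was 2.56 (1.74 to 3.64) in the other fibril-forming genes, 3.09 (1.77 to 5.01) in type VI, 1.88 (1.13 to 2.93) in the fibril-associated genes and 1.48 (0.878 to 2.34) in type IV. The multiplexins were the only subfamily below 1 there, at 0.504 (0.0610 to 1.82), with 2 positions against 3.97 expected. COL2A1, with 12 positions in 15 exons and a ratio of 4.58, came closest to COL3A1.

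At the start sites collagen genes held few positions, as genes do in general. From -200 to +50 bp, 7 of 42 genes held 1 position each, 16.7% (8.32 to 30.6%), and 14.3% of all genes held at least 1. These were COL3A1, COL6A5, COL10A1, COL11A1, COL16A1, COL20A1 and COL28A1. Their 7 positions stood against 9.60 expected, a ratio of 0.730 (0.293 to 1.50), beside 0.618 in other genes. In the fibrillar set only COL3A1 held a position, 17 bp before its start. From +51 to +250 bp, where the first nucleosome of an active gene usually lies, 3 of 42 collagen genes held a position, 7.14% (2.46 to 19.01%), and 22.6% of all genes did. The 3 positions stood against 7.74 expected, a ratio of 0.387 (0.0799 to 1.13), beside 1.26 in other genes, and the rate ratio was 0.308 (0.0635 to 0.900). The genes were COL6A1, COL6A3 and COL19A1, at 93, 64 and 57 bp. None of the 5 fibrillar genes held one, where 1.32 were expected. The first position after the start lay a median of 1402 bp in, from 47 bp in COL10A1 to 17361 bp in COL3A1. In COL3A1 that stretch included 12 internal coding exons and a first intron of 10191 bp, and 4.95 positions were expected in it.

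The type IV genes are arranged in head-to-head pairs that share a promoter, and none of the 4 start windows held a position. Few were expected there, 0.0465 in COL4A1, 0.0488 in COL4A2, 0.234 in COL4A3 and 0.0828 in COL4A4, and only 14.3% of all genes held one. The starts of COL4A1 and COL4A2 are 126 bp apart on chromosome 13. The sequence between them is printed because a single nucleosome would cover all of it. It is 80.2% GC with 20 CpG, is read 5′ to 3′ along COL4A2 (plus strand, hg38), and capitals mark a CCAAT box (CCAAT) and a GC box (GGGCGG), searched on both strands.
Between COL4A1 and COL4A2, chr13:110307158-110307283, plus strand: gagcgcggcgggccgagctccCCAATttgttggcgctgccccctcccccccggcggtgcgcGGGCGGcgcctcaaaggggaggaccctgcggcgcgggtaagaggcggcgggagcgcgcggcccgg
Each motif matched 1 time and the matches do not overlap. Of 19111 stretches of 126 bp upstream of a start, 23.9% held a CCAAT box and 50.1% a GC box. No position lay in it, and the nearest ones lay 2983 bp into COL4A1 and 5674 bp into COL4A2. The starts of COL4A3 and COL4A4 on chromosome 2 are 418 bp apart, again with no position between them, and the nearest lay 286 bp into COL4A4 and 3725 bp into COL4A3.

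At 3' ends the fibrillar genes had more positions than expected after the end of the gene. In the 500 bp after the end of the transcript COL1A1 had 2 positions, COL1A2 had 2, COL3A1 had 1, COL5A1 had 3 and COL5A2 had 1, so that 5 of 5 genes held at least 1, where 38.5% of all genes did. These 9 positions stood against 2.60 expected, a ratio of 3.46 (1.58 to 6.57). In the 500 bp up to the end, none of the 5 had a position, where 1.36 were expected and 32.7% of all genes held one. That 0 was within counting error (ratio interval 0 to 2.72), as was the rate ratio to the other collagen genes (0 to 2.04). Among the other collagen genes 18 of 37 held a position after the end, with 30 positions and a ratio of 1.39 (0.936 to 1.98), and 16 of 37 held one before it. The rate ratio of the sets after the end was 2.49 (1.04 to 5.39). Both sides together were the window set for 3' ends, and there the rate ratio was 1.61 (0.700 to 3.29), an interval that included 1. It was 1.20 with positions closer than 100 bp merged. The side after the end was not varied in this way. Over all 42 genes, the 1000 bp around the end held 63 positions against 42.3, a ratio of 1.49 (1.15 to 1.91), beside 0.925 in other genes.

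The genes that modify, fold, cleave and cross-link collagen chains were taken as a list of 31 assembly genes. Of the 29 with at least 10 expected positions, 1 had a body ratio of at least 1.5 and 14 had 1/1.5 or less, against the backgrounds of 6.91 and 34.5% given above, and their median was 0.671. The lowest were P4HB, a subunit of the prolyl hydroxylase that stabilises the helix, at 0.167 (0.0542 to 0.390), and SERPINH1, the collagen chaperone HSP47, at 0.168 (0.0345 to 0.490). The highest was LOXL4, a cross-linking oxidase, at 1.74 (1.32 to 2.24). At their start windows 2 of 31 held a position, where 14.3% of all genes did. The assembly genes as a list thus had a lower median than the collagen genes, 0.671 against 1.15, and no test of that difference was made.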

How the data were processed

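MNase-seq was done on interphase ARPE-19 cells in 2 batches. Reads were aligned with Bowtie2 to hg38 (GRCh38), per the submitters' processing notes. The deposited list has no measured unit: each row is a genome coordinate, 1 bp wide, with no height, score or p-value. The caller, its threshold, any filter on fragment length and whether the batches were pooled are not given in the sources used here, nor is what 120, 180 and 2 in the list's name mean. Whether a position marks the centre of a nucleosome is not stated either. All positions lay on determined bases of the hg38 reference used.

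Repeated rows were removed and positions counted on chromosomes 1-22. Genes, exons, starts and ends came from GENCODE 44, using the MANE Select transcript of each of the 42 genes. For other genes the canonical one was used where there is no MANE Select transcript. Internal coding exons are neither first nor last and wholly coding. The GC expectation, windows and intervals are described with the results. No test over samples, genes or chromosomes was made. The counting was tested on simulated data. Alternatives were no GC expectation, GC windows of 500 and 100 bp, a regional level, merging positions closer than 100 bp, leaving out chromosome 9 or single fibrillar genes, a wider fibrillar set, other exon sets and other windows. The wider fibrillar set added COL2A1, COL11A1, COL11A2, COL24A1 and COL27A1, and COL5A3 stayed among the other collagen genes.

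The genes named are the 5 fibrillar genes, both type IV pairs, the 4 highest and 4 lowest other body ratios among genes with at least 10 expected positions, all genes with a position in the start window and every exon under 60 bp with at least 2. Any other gene whose values are given was chosen after its values were seen. The sequence of 1 exon is not reported here. The members and lists were chosen with earlier results of these data known. Python 3.11.15, numpy 2.4.6, scipy 1.17.1, pandas 2.3.3 and matplotlib 3.10.9 were used.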

Additional observations from a re-analysis of the deposited data

Results flagged for a closer look

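The rule for the members leaves out chromosome X, which holds a further head-to-head pair of type IV genes. They are listed because they carried positions outside the chromosomes compared. COL4A6 held 182 positions, a ratio of 0.709 (0.610 to 0.820), and COL4A5 held 81, a ratio of 0.576 (0.458 to 0.716), to a GC expectation taken from chromosomes 1-22. With 256.7 and 140.6 positions expected, exceeding the 3 that a count of 0 allows says nothing particular about these genes. Neither start window held a position, where 14.3% of genes on chromosomes 1-22 did.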

How the results depend on the processing

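Over 17 results, 133 alternative values were computed, and 111 stayed within the counting interval of the value reported. Where counts are small that interval is wide, so staying within it says little about stability. For the fibrillar set against the other collagen genes it was 0.0207 to 7.85 at start windows and 0.700 to 3.29 at 3' ends. Without a GC expectation the ratios were 1.24 for bodies, 1.23 for introns and 1.84, 3.26 and 1.84 for exons under 60, of 60 to 120 and over 120 bp. With the 100-bp GC window, added after the data were seen, the exon ratios were 0.897, 1.47 and 0.959, so 2 of 3 fell below 1. The intervals of those 2, 0.705 to 1.13 and 0.803 to 1.14, included 1. Other genes stood lower in the same 2 classes, at 0.679 and 0.735. With the 500-bp window exons of 60 to 120 bp stood at 2.53. Against the regional level bodies were at 1.10 and introns at 1.08, and without chromosome 9 at 1.09 and 1.08. With a half-width of 50 bp, 18.2% of exons under 60 bp and 27.1% of those of 60 to 120 bp had a position near the midpoint. For the fibrillar set against the other collagen genes, the regional level gave 0.771 for bodies and 0.739 for introns, the wider set 1.14 and 1.12, and leaving out chromosome 9 gave 0.853 for introns. Leaving out each fibrillar gene in turn gave 0.814 (without COL5A1) to 0.993 for introns and 0 (without COL3A1) to 1.38 for start windows, where the set holds 1 position. The cause of these shifts was not tested. Read depth is unknown. The start windows held 7 positions in all, and the interval of their ratio, 0.293 to 1.50, included 1. No paired analysis was possible because the list does not tell batch 1 from batch 2, and for the same reason no batch could be left out.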
